A study of Mus musculus with 2 samples.

Results

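Acid secretion by the parietal cell, the acid-producing cell of the gastric glands, depends on transporters that move chloride, bicarbonate, sodium and protons across its membranes. The 9 genes described here encode such transporters: the chloride-bicarbonate exchangers and chloride transporters Slc4a2, Slc26a6, Slc26a7 and Slc26a9, the sodium-proton exchangers Slc9a2, Slc9a3 and Slc9a4, the sodium-bicarbonate cotransporter Slc4a4 and the sodium-potassium-chloride cotransporter Slc12a2. They were chosen by name from the 38087 Ensembl genes in each deposited table, and all 9 were listed above 0 in both libraries. The libraries were made from total RNA of cells labelled as parietal, sorted from the stomach of C57BL/6 mice that had received a high fat diet (HFD) or served as controls, with 1 library per diet. The age, sex and number of the mice, the length and composition of the diets and the markers used for the sort are not given in the labels. With 1 library per diet there is no replicate check, no test of the diets was possible, and every difference below is between these 2 libraries.

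When the proton pump exports a proton at the apical membrane, a bicarbonate ion is left in the cytoplasm. A basolateral anion exchanger trades that bicarbonate for chloride, and the chloride then leaves the cell on the apical side to form hydrochloric acid. Sodium-proton exchangers and cotransporters on the basolateral membrane regulate cell pH and volume and bring in further chloride. Relatives of these genes serve the surface mucous cells of the stomach, which secrete bicarbonate.

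Levels are given as RPKM, reads per kilobase of gene and per M reads of the library. Comparing them between genes rests on the gene lengths behind the deposited values, whose annotation release is not named. The tables list genes at or below 1 RPKM as 0. By the steps between low values, the HFD library held about 25.49 M reads and the control library 9.84 M. Each of the 9 genes rested on at least 227 (HFD) and 100.4 (control) estimated reads. Intervals are 95% intervals from these reads; they cover counting error only, and not the variation between mice.

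The markers of the parietal cell were present in both libraries, and so were those of other cells of the stomach. All 10 parietal markers examined were listed in both libraries, 8 of them higher in the HFD library, with a summed level of 12927 RPKM there and 10190 in the control library. Atp4a and Atp4b together held most of both sums, at 10637 RPKM (HFD) and 8699 RPKM (control). For comparison, 44% of the 16037 genes listed in either library were higher in the HFD library. Of 5 pit cell markers (surface mucous cells), 4 stood higher with HFD (sum 36056 against 14515 RPKM), none of them at 0. Of 5 chief cell markers, 4 were lower (sum 48583 against 106833 RPKM), as were 5 of 6 endocrine markers (sum 1211 against 8296 RPKM), all 3 neck cell markers (sum 7496 against 8503 RPKM) and all 7 pancreatic acinar markers (sum 1797 against 13497 RPKM, with Ctrb1, Cela2a, Pnlip, Prss2 and Cpa1 at 0 in the HFD library). Pgc alone held most of both chief cell sums, at 45624 RPKM (HFD) and 102292 RPKM (control). Clps alone held most of both acinar sums, at 1790 RPKM (HFD) and 12989 RPKM (control). Fibroblast, smooth muscle, endothelial and erythroid markers were all lower in the HFD library where listed, each list summing to at most 167 RPKM. Of 6 leukocyte markers, Ptprc, Cd3e and Cd79a were at 0 in both libraries, and the sum was 25.98 against 8.13 RPKM. For the intestinal epithelium, where several of the transporters are also expressed, Cdx1, Cdx2, Lct and Sis were at 0 in both libraries, and the 3 listed markers summed to 30.2 and 26.4 RPKM. In such bulk RNA a change in the number of cells of a type and a change in the RNA per cell cannot be told apart.

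Promoter windows, from 250 bases before to 50 bases after a RefSeq start site (GRCm38.p6), were at hand for 5 of the 9 genes, in 7 windows. The window of Slc26a6 is shown because this gene had the highest ratio between the libraries. Those of Slc26a9 and Slc4a2 are shown because these exchangers had the highest levels of their kind. Each sequence runs 5′ to 3′ on the plus strand, which is the strand of the gene. Capitals mark CG dinucleotides and, in Slc26a9, the motif TTATCT.
Slc26a6, chr9:108853793-108854092: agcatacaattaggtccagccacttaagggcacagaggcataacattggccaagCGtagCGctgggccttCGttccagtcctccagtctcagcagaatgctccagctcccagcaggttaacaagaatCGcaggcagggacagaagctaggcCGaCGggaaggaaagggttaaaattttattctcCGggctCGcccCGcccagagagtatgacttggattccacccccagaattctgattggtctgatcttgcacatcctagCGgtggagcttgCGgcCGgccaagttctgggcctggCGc
Slc26a9, chr1:131743772-131744071: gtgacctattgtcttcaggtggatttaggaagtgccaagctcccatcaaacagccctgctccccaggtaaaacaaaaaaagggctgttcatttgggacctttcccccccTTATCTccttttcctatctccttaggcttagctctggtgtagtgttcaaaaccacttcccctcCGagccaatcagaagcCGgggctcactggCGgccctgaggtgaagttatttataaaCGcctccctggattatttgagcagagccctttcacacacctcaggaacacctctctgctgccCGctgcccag
Slc4a2, upstream of its 2 windows, chr5:24424982-24425281: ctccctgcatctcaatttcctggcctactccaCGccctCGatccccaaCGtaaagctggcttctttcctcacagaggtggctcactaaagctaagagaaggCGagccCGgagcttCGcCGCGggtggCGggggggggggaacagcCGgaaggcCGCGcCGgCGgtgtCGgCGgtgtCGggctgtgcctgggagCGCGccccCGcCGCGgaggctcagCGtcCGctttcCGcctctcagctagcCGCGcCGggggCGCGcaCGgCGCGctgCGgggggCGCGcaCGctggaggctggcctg

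The 3 windows differ in their CG content. The Slc4a2 window shown holds 37 CG dinucleotides, a number reached by 5.58% of all 32851 windows in the table. The other Slc4a2 window, not shown, holds 16 (reached by 33.0%). The Slc26a6 window holds 13 (reached by 37.9%) and the Slc26a9 window 5 (reached by 62.0%), against a median of 7. The 7 windows were searched on both strands for 3 motifs, whose matches do not overlap. AAGGTCA, the core site of estrogen-related receptors, was in none of the 7, and in 4.72% of all windows. TGACGTCA, the cyclic AMP response element, was in none of the 7, and in 1.79% of all windows. AGATAA, the motif of GATA factors (TTATCT on the other strand), was in 1 of the 7, that of Slc26a9, at positions -141 to -136 with the start site at 0, and in 11.2% of all windows. A match is a description of the letters and no evidence of binding.

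Across the 9 genes, levels spanned 161-fold (HFD) and 104-fold (control). In the control library the order from high to low was Slc4a2, Slc9a4, Slc26a9, Slc9a2, Slc12a2, Slc26a6, Slc26a7, Slc4a4 and Slc9a3. In the HFD library Slc26a9 stood above Slc9a4 and Slc12a2 above Slc9a2, and the other 5 genes kept their places. Within each library the counting intervals of neighbours in the order did not overlap, except those of Slc9a2 and Slc12a2 in the control library (45.1 and 45.0 RPKM). The spread over mice is not known, so this order holds for these libraries. Together the 9 genes summed to 632 RPKM (HFD) and 447 RPKM (control), with the 4 anion transporters holding 66.1% and 60.8% of these sums.

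**Figure D1:**
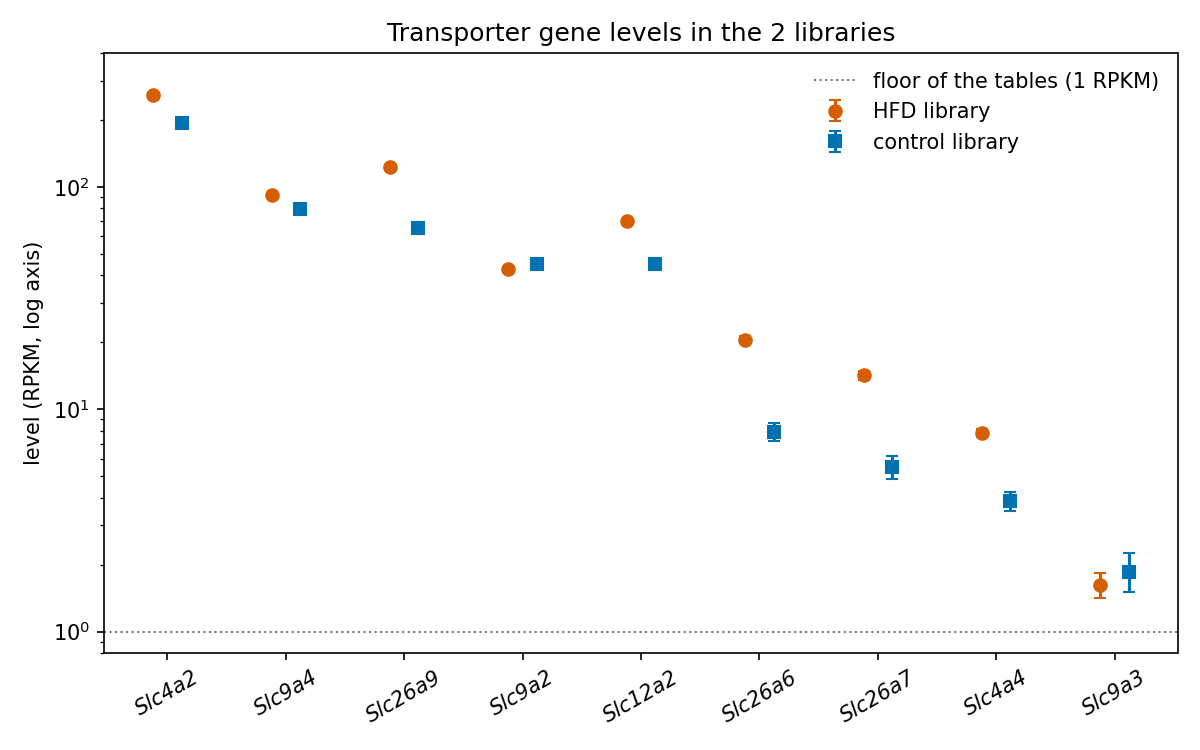
Level of each of the 9 transporter genes (RPKM, log axis) in the HFD library (circles) and the control library (squares); bars are 95% counting intervals, hidden behind the symbol where narrow, and the dotted line is the floor of 1 RPKM. Slc4a2 is highest in both libraries (260.0 and 193 RPKM) and Slc9a3 lowest, close to the floor.

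Of the 9 genes, 7 were higher and 2 were lower in the HFD library as deposited, and 5 to 9 were higher when the HFD values were scaled in other ways. Among all 16037 genes listed in either library 44% were higher, and among the 9997 protein-coding genes listed in both 47.8% were higher. The median difference of the 9 was 0.63 on the log2(RPKM + 1) scale, against -0.13 over all listed genes and -0.11 over protein-coding ones. For 7 genes the whole interval lay above a ratio of 1 (37.8% of protein-coding genes listed in both), for Slc9a2 it lay below 1 (42.1%), and for Slc9a3 it included 1. Slc26a6 and Slc26a7 were over 2-fold higher on the log2(RPKM + 1) scale, where 12.5% of all listed genes and 8.02% of protein-coding ones were. On the log2(RPKM + 1) scale neither passed 2-fold with the HFD values scaled to the proton pump genes Atp4a and Atp4b. Slc26a6 fell just short there, at 0.9998 where 2-fold is 1, and Slc26a7 was at 0.96. Neither gene passed 2-fold with the 20 most abundant genes left out of the scaling total. By RPKM ratio without a pseudocount, each was still 2.1-fold higher relative to the pump genes. No gene of the 9 was over 2-fold lower, against 23.9% of all listed genes and 20.1% of protein-coding ones. These 2 shares include every gene listed only in the control library, since its HFD value was entered as 0. In the same way, the upward shares of 12.5% and 8.02% include every gene listed only in the HFD library. Among the 9997 protein-coding genes listed in both libraries, 12.5% were over 2-fold lower and 7% over 2-fold higher by RPKM ratio. By that ratio 3 of the 9, all listed in both, were over 2-fold higher. The 9 members are too few, and were chosen with results of these data known, for their counts to be more than a description.

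Slc4a2 (ENSMUSG00000028962, chromosome 5, 24423837 to 24440950, mm10) encodes AE2, the basolateral exchanger that supplies chloride for acid secretion. Its level was 260.0 RPKM in the HFD library, where it ranked 81 among 10485 listed protein-coding genes. In the control library it stood at 193 RPKM and ranked 112 among 11488. The ratio was 1.34 (interval 1.32 to 1.37), though below 1 with the 20 most abundant genes left out of the scaling total, and 25.2% of protein-coding genes listed in both libraries had a higher one. Exons of Fastk, on the opposite strand, overlap 13.7% of the exon length of Slc4a2. Fastk itself stood at 26.1 and 23.8 RPKM, and since the strand setting of the counting is not known, a part of the reads cannot be told apart.

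Slc26a7 (ENSMUSG00000040569, chromosome 4, 14502430 to 14621805) encodes a chloride-bicarbonate exchanger of the basolateral membrane of parietal cells. It stood at 14.2 RPKM (HFD) and 5.48 RPKM (control), on 1966 and 293 estimated reads. The ratio was 2.59 (2.29 to 2.94), the whole interval above 2, as in 4.07% of protein-coding genes listed in both libraries. Both libraries carried far less of it than of Slc4a2, which exceeded it 18.3 times with HFD (17.5 to 19.2) and 35.3 times in control (31.4 to 39.7). The gap between these basolateral exchanger transcripts was thus narrower in the HFD library, and the intervals of the gap did not overlap.

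Slc26a6 (ENSMUSG00000023259, chromosome 9, 108853283 to 108913049) encodes an apical exchanger of chloride, bicarbonate and oxalate, also called PAT1. Its level was 20.6 RPKM (HFD) and 7.92 RPKM (control). The ratio was 2.60 (2.35 to 2.89), and 3.03% of protein-coding genes had a higher one. Its place among listed protein-coding genes was 1918 with HFD and 5249 in control.

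Slc26a9 (ENSMUSG00000042268, chromosome 1, 131744022 to 131771504) encodes a chloride channel and transporter of gastric epithelium, found in surface cells and in parietal cells. It stood at 123 RPKM (HFD) and 65.2 RPKM (control), a ratio of 1.89 (1.82 to 1.97). Its place among listed protein-coding genes was 185 and 436. It was 8.69 times as high as Slc26a7 with HFD and 11.9 times in control. Of the pit cell markers summed above, Gkn1 (21736 against 5021 RPKM) and Gkn2 (8091 against 3406 RPKM) carried most of the higher sum, Muc5ac stood at 538 against 411 RPKM, and Tff1 and Psca had ratios of 0.986 and 1.02. Their part in the values of Slc26a9 was not tested.

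Slc9a4 (ENSMUSG00000026065, chromosome 1, 40580081 to 40630725) encodes NHE4, a basolateral sodium-proton exchanger prominent in parietal cells. It stood at 92.0 RPKM (HFD) and 79.4 RPKM (control). The ratio of 1.16 (1.12 to 1.20) was the lowest among the 7 genes that were higher, and it fell below 1 under 2 of 4 other scales. Exons of Gm35801 and Gm37435, on the opposite strand, overlap 4.54% and 16.7% of its exon length. Neither has a deposited value, so their levels are not known. With the strand setting also not known, a part of the Slc9a4 reads cannot be told apart.

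Slc9a2 (ENSMUSG00000026062, chromosome 1, 40680574 to 40769273), which encodes NHE2, lies 49.8 kb downstream of Slc9a4 on the same strand. It stood at 42.6 RPKM (HFD) and 45.1 RPKM (control), a ratio of 0.943 (0.905 to 0.984). These neighbouring exchanger genes therefore lay on opposite sides of 1 as deposited, while their quotient does not depend on the scale. Slc9a4 was 2.16 times as high as Slc9a2 in the HFD library (2.10 to 2.23) and 1.76 times in the control library (1.68 to 1.85).

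Slc9a3 (ENSMUSG00000036123, chromosome 13, 74121457 to 74169442) encodes NHE3, the apical exchanger that absorbs sodium in intestine and kidney. It stood at 1.62 RPKM (HFD) and 1.85 RPKM (control), both close to the floor of the tables. The ratio of 0.873 had an interval from 0.687 to 1.12, so no difference was detectable at this depth. At these levels it held 0.256% and 0.415% of the summed RPKM of the 9 genes.

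Slc4a4 (ENSMUSG00000060961, chromosome 5, 88886818 to 89239653) encodes NBCe1, which imports bicarbonate with sodium across the basolateral membrane of bicarbonate-secreting epithelia. Its level was 7.84 RPKM (HFD) and 3.86 RPKM (control). The ratio was 2.03 (1.83 to 2.26), over 2-fold as 7% of protein-coding genes listed in both libraries were, but its interval held 2. On the log2(RPKM + 1) scale the difference was 0.86, under 2-fold.

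Slc12a2 (ENSMUSG00000024597, chromosome 18, 57878678 to 57946821) encodes NKCC1, which brings chloride into the cell with sodium and potassium. It stood at 70.0 RPKM (HFD) and 45.0 RPKM (control), a ratio of 1.56 (1.51 to 1.61). In the HFD library it was 1.64 times as high as Slc9a2, while in the control library the quotient was 0.996 (0.952 to 1.04).

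**Figure D2:**
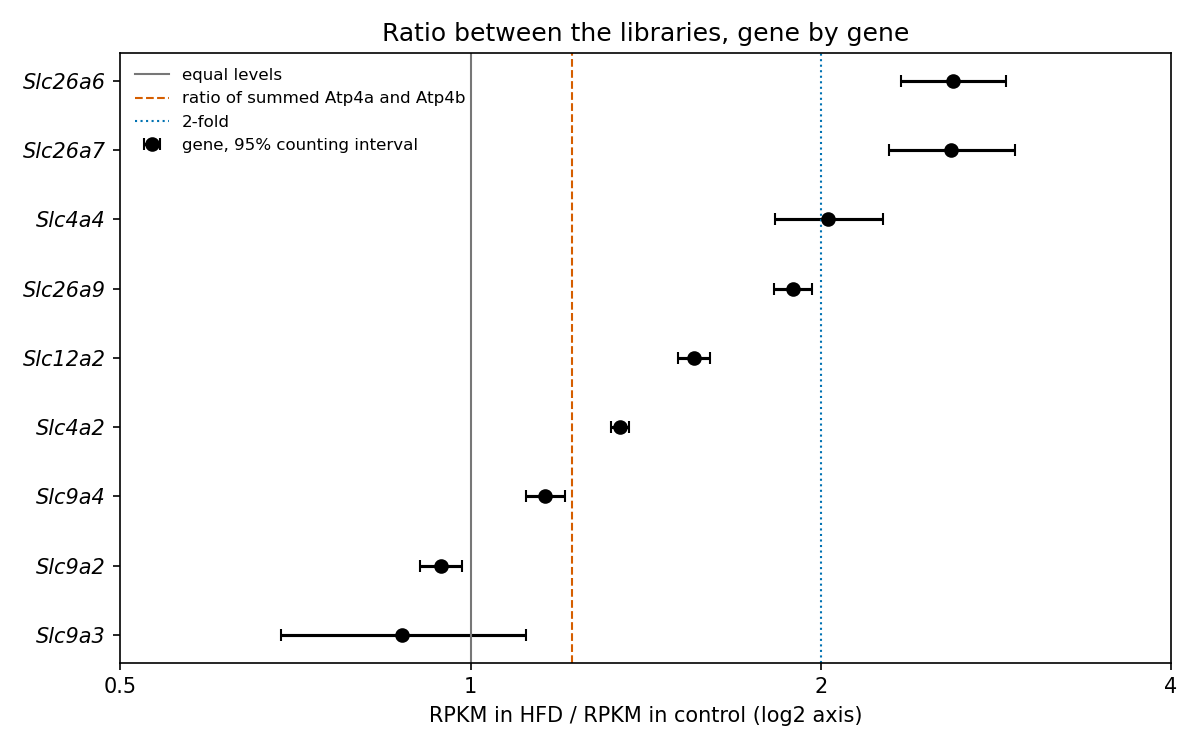
RPKM in the HFD library divided by RPKM in control for each gene (log2 axis), with 95% counting intervals; the lines mark equal levels, the ratio of the summed proton pump genes (1.22) and 2-fold. The intervals of Slc26a6 and Slc26a7 lie wholly above 2, and only that of Slc9a3 includes 1.

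By role, the 4 anion transporters were all higher with HFD (3 of 4 with the 20 most abundant genes left out of the scaling total), at a median log2(RPKM + 1) difference of 1.07 and sums of 418 against 272 RPKM. The 2 sodium cotransporters were both higher, with sums of 77.8 against 48.8 RPKM. The 3 sodium-proton exchangers had 1 higher and 2 lower (all 3 lower scaled to the pump or without those 20 genes, all 3 higher scaled to protein-coding genes), a median of -0.08 and sums of 136 against 126 RPKM. Over all 16037 genes listed in either library, 44% were higher as deposited, with a median of -0.13. That all-gene median was -0.37 scaled to the pump, -0.63 without those 20 genes and 0.12 scaled to protein-coding genes. The highest interval bound among the sodium-proton exchangers, 1.20 for Slc9a4, lay below the lowest bound among the 6 other genes, 1.32 for Slc4a2. The share of the 9-gene sum held by sodium-proton exchangers was 21.5% (HFD) and 28.3% (control).

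**Figure D3:**
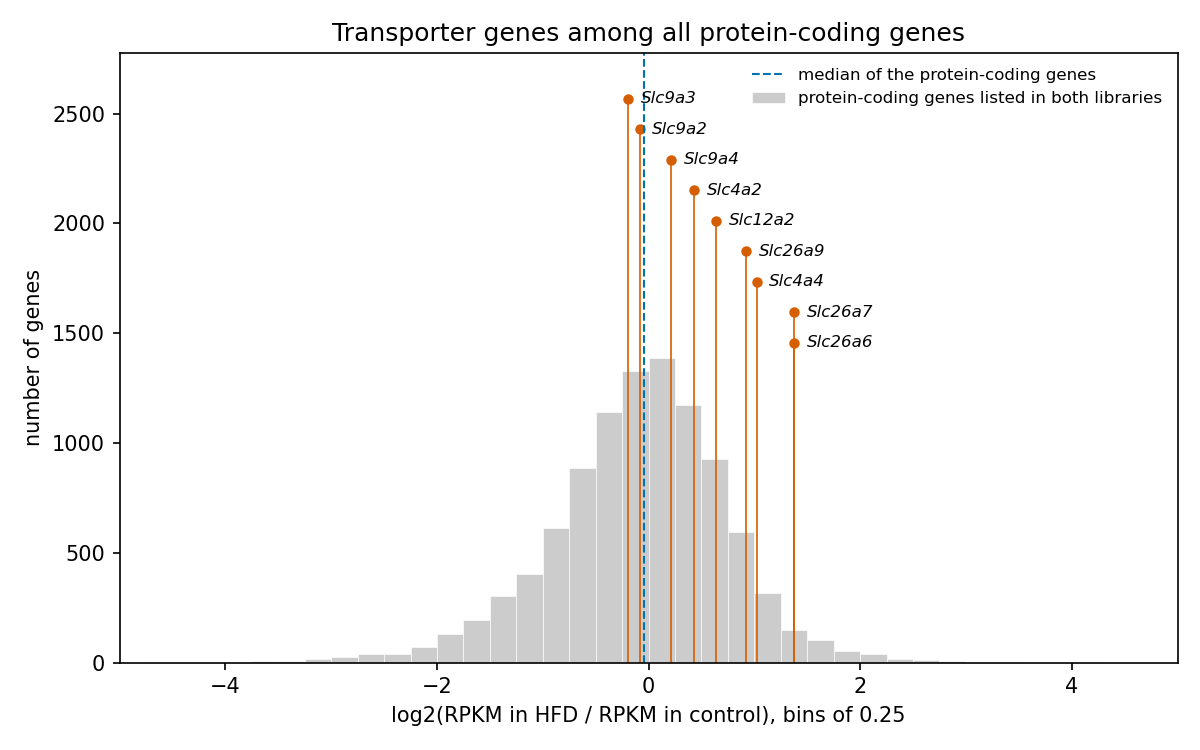
Number of protein-coding genes listed in both libraries by log2 ratio of RPKM (grey bars, bins of 0.25), with the 9 transporter genes as labelled lines whose heights carry no value and the median of the protein-coding genes (-0.04) as a dashed line. Slc9a3 and Slc9a2 lie near the middle, and Slc26a6 and Slc26a7 lie in the upper tail.

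The transporters were also set against the proton pump, the defining transcript of the parietal cell. Atp4a and Atp4b, its catalytic and beta subunits, summed to 10637 RPKM (HFD) and 8699 RPKM (control), a ratio of 1.22. For each 1000 RPKM of pump transcript, Slc4a2 stood at 24.4 RPKM (HFD) and 22.2 RPKM (control), 1.10 times as high. Slc26a6 went from 0.910 in the control library to 1.93 in the HFD library and Slc26a7 from 0.630 to 1.33, each 2.1-fold. Slc26a9 (11.6 against 7.50), Slc12a2 (6.58 against 5.17) and Slc4a4 (0.737 against 0.444) were also higher per pump transcript. The intervals of Slc9a2, Slc9a3 and Slc9a4 lay below the pump ratio, so the 3 sodium-proton exchangers were lower on this scale, with Slc9a4 at 0.948 and Slc9a2 at 0.771 times the control. Scaled this way 6 genes were higher and 3 lower, and none passed 2-fold on the log2(RPKM + 1) scale. Slc26a6 fell just short, at 0.9998 where 2-fold is 1. Over all listed genes the median was then -0.37, with 1503 genes over 2-fold higher and 4507 over 2-fold lower.

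**Figure D4:**
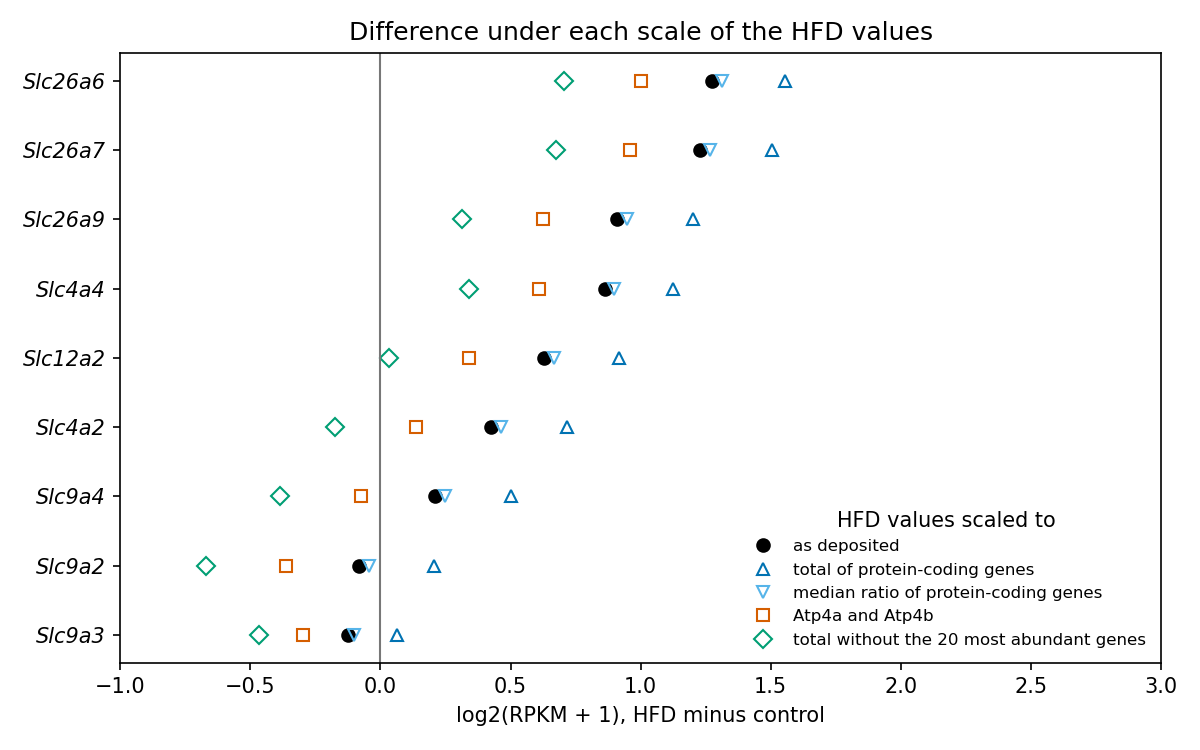
Difference in log2(RPKM + 1), HFD minus control, for each gene as deposited (filled circles) and with the HFD values scaled in 4 other ways (open symbols). Slc26a6, Slc26a7, Slc26a9, Slc4a4 and Slc12a2 lie above 0 on every scale shown, and the other 4 genes cross 0 on at least 1.

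The direction of 4 of the 9 genes depended on the scale. Slc26a6, Slc26a7, Slc26a9, Slc4a4 and Slc12a2 stayed higher in the HFD library under all 4 other scales, Slc12a2 by only 0.03 on the log2(RPKM + 1) scale with the 20 most abundant genes left out of the total. On that scale, where the median of all listed genes moved to -0.63, Slc4a2 was at -0.18 and Slc9a4 at -0.39, so both were lower in the HFD library. The median of the 9 genes was then 0.03 and none was over 2-fold higher, while 1103 of all listed genes passed 2-fold upward and 5641 downward, against 2000 and 3833 as deposited. Scaled to the total of protein-coding genes, where that median was 0.12, all 9 genes were higher, Slc9a2 by 0.21 and Slc9a3 by 0.06.

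Relatives of the 9 genes were mostly at or below the floor, and so were most genes. Of all 38087 genes, 16037 were listed in either library. Of 32 other genes of the Slc4, Slc9, Slc12 and Slc26 families examined, 18 were at 0 in both libraries. The intestinal and thyroid anion exchanger genes Slc26a3 and Slc26a4, the erythroid Slc4a1, and the kidney cotransporter genes Slc12a1 and Slc12a3 were among them. Of the 14 listed in a library, 8 were higher in the HFD library and 6 lower, with a median log2(RPKM + 1) difference of 0.15. Among all 16037 genes listed in either library 44% were higher, with a median of -0.13. These are the values to set beside the counts and medians of the lists below.

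Among 16 Slc4 and Slc26 relatives, 5 were listed, 3 of them higher and 2 lower. Slc4a7, which encodes an electroneutral sodium-bicarbonate cotransporter, stood at 12.1 against 6.68 RPKM, a ratio of 1.81 (1.69 to 1.94). Slc26a2, a sulfate transporter gene, stood at 19.4 against 11.4 RPKM (ratio 1.70), and Slc26a10 at 5.99 against 3.49 RPKM (ratio 1.72). Slc26a11 stood at 1.59 against 2.07 RPKM, with an interval that included 1, and Slc4a3 was listed at 0 with HFD and at 1.35 RPKM in control.

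Of 15 sodium-proton exchanger relatives and partners, 9 were listed, 5 higher and 4 lower. On the log2(RPKM + 1) scale 3 of the 9 were over 2-fold lower, as were 23.9% of all listed genes. The scaffold genes Slc9a3r1 and Slc9a3r2, whose proteins (NHERF1 and NHERF2) bind NHE3 and other transporters, stood at 27.2 against 69.4 RPKM and 14.0 against 45.9 RPKM. They were thus 2.55 times (2.36 to 2.75) and 3.27 times (3.004 to 3.57) lower in the HFD library. The third gene over 2-fold lower, Chp2, was listed at 0 with HFD and at 1.85 RPKM in control, on 29.2 estimated reads. Since a 0 stands for any level up to 1 RPKM, a 2-fold difference is not shown for Chp2. Chp1, which encodes a required partner of sodium-proton exchangers, had a ratio of 1.15, and Tesc, which encodes another calcium-binding partner, one of 1.12. Slc9b2 was the highest of the list by ratio, at 20.3 against 15.3 RPKM.

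Of 14 cation-chloride cotransporter relatives and their kinases, 10 were listed, 5 higher and 5 lower. Slc12a7, which encodes the potassium-chloride cotransporter KCC4, stood at 106 against 75.2 RPKM, a ratio of 1.41 (1.38 to 1.44), above Slc12a2 in level in both libraries. Stk39 encodes SPAK, the kinase that activates NKCC1, and stood at 21.8 against 11.7 RPKM, a ratio of 1.87 (1.71 to 2.05). The upstream kinase genes Wnk4 and Wnk1 had ratios of 1.76 and 1.26. Wnk2 was listed at 0 with HFD and at 4.45 RPKM in control.

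Of 21 chloride channel genes, 14 were listed, 5 higher and 9 lower, with a median of -0.36. Clic6, a chloride intracellular channel gene abundant in parietal cells, stood at 307 against 301 RPKM, a ratio of 1.02. Its relative Clic1 stood at 34.3 against 65.3 RPKM and was 1.90 times lower in the HFD library (1.76 to 2.06). Among genes of endosomal chloride-proton exchangers, Clcn5 had a ratio of 1.64 and Clcn4 one of 1.25, while Clcn6 was listed at 0 with HFD and at 1.97 RPKM in control. Ano6, a lipid scramblase and channel gene, had a ratio of 0.804. Cftr, the cyclic AMP-gated chloride channel gene, was at 0 in both libraries.

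Of 22 partners in acid secretion, 19 were listed, 11 higher and 8 lower, with a median of 0.28. Car2, the carbonic anhydrase gene whose product forms the bicarbonate that the exchangers carry, had a ratio of 1.81, and Aqp4, the water channel gene of the basolateral membrane, one of 2.96 (2.58 to 3.41). Ezr, a gene of the apical cytoskeleton, had a ratio of 0.916. Cckbr, the gastrin receptor gene, was listed at 0 with HFD and at 3.67 RPKM in control.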

How the data were processed

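Per the submitters' processing notes, the authors used the genome build mm10 and bedtools 2.25.0; neither they nor the labels name the aligner, counting rule, strand setting or annotation release. Per the labels' protocols, ribosomal RNA was removed before library preparation. The deposited values are headed RPKM and were read as log2 of RPKM with genes at or below 1 RPKM listed as 0: the largest was 18.22, and the smallest listed above 0 were 1.0006 (HFD) and 1.0013 RPKM (control).

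Symbols and positions came from GENCODE release M21 on GRCm38 (mm10), which held 36308 of the identifiers and lacked 1779. Depth was taken from the step on which RPKM times length of single-exon genes falls; at up to 12.5 steps, 94 of 189 values (HFD) and 262 of 727 (control) lay within 0.005 of a whole number, where chance gives 1%. Ratios are of RPKM with an exact conditional binomial 95% interval (scipy 1.17.1); medians and 2-fold counts use log2(RPKM + 1). Intervals assume exon lengths of M21 and independent reads, and are approximate. No test was run, since each diet had 1 library. The calculations were tested on simulated reads drawn with the same exon lengths, so wrong lengths and variation between mice were not tested. The genes, related lists, markers and motifs were chosen with earlier results of these data known. All 9 genes are named; of each related list up to 4 genes of the highest mean and those with the highest and lowest difference at no fewer than 50 estimated reads are named, and further genes named as listed at 0 were chosen after their values were seen. In the lists, 1 partner symbol and 1 chief cell symbol had no match. The values of 1 gene that this rule names are not reported here.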

Additional observations from a re-analysis of the deposited data

How the results depend on the processing

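The median log2(RPKM + 1) difference of the transporter genes, 0.63 as deposited, was 0.64 with a pseudocount of 0.1 RPKM and 0.64 as an RPKM ratio, and 0.74 over the 8 genes of at least 5 RPKM. It was 0.92 scaled to the total of protein-coding genes, 0.34 scaled to Atp4a and Atp4b, and 0.033 with the 20 most abundant genes left out of the scaling total. The median over all listed genes, -0.13 as deposited, was 0.12, -0.37 and -0.63 in the same order. The number over 2-fold, 2 as deposited, was 4, 0 and 0 under these 3 scales and 3 as an RPKM ratio. Scaled to the pump genes, Slc26a6 was just under 2-fold, at 0.9998 where 2-fold is 1. The number higher in the HFD library was 5 to 9 of 9. Single genes reversed under 3 scales: Slc4a2 (-0.18) and Slc9a4 (-0.39) with those 20 genes left out, Slc9a4 (-0.075) scaled to the pump genes, and Slc9a2 (0.21) and Slc9a3 (0.064) scaled to protein-coding genes. Of 71 single-gene values under the 8 alternatives, 41 were classed as the same as deposited, 25 as moved and 5 as reversed in sign. The reversed value of Slc9a3 belongs to a gene whose counting interval as deposited included a ratio of 1. Entering genes at 0 as 1 RPKM without a pseudocount gave the members the same values as the RPKM ratio, since all were listed. Slc4a4 then passed 2-fold, at 1.02 against 0.86 as deposited. No paired analysis was possible because each diet had 1 library, and no library could be left out. Depth limits Slc9a3 most, with 227 and 100.4 estimated reads.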
